A study of Mus musculus with 9 samples.

Results

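Collagen genes were examined in whole mouse liver deficient in O-GlcNAc transferase (OGT), the enzyme that places a single sugar, N-acetylglucosamine, on nuclear and cytoplasmic proteins. A gene counted as a collagen if its symbol was Col, a type number, the letter a and a chain number, a pattern that 44 of the 24421 listed symbols matched. These genes encode the chains of the collagen types and were described by class: 11 fibrillar, 8 basement membrane, 12 network, beaded filament and anchoring, 9 fibril-associated (FACIT) and 4 transmembrane. Total liver RNA was sequenced from 5 control littermates (Wildtype in the labels, WT here) and 4 OGT-deleted mice (OGT-deficient), 1 library per mouse. All the mice were of strain C57BL/6J and 5 weeks old, both sexes were used, and food was removed 6 h before the animals were killed. The promoter or other means of deletion is not given in the sources used here, nor is the sex of each mouse. Because whole tissue was sequenced, fewer cells of a type and less RNA per cell cannot be told apart, nor can more cells and more RNA per cell.

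Collagens are extracellular proteins built of chains that wind around each other into a helix. Fibrillar collagens form the cables of scar and connective tissue, basement membrane collagens form sheets under epithelia and around vessels, FACIT collagens sit on the surface of fibrils, and transmembrane collagens stay anchored in the cell that makes them. In liver, stellate cells and portal fibroblasts are known as the main makers of fibrillar collagen, and type I and type III collagen build up when the organ scars.

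Each library held 32337861 to 54130901 counts assigned to genes. Levels are given as CPM, the count scaled to a common library size after TMM scaling, and 3 counts then correspond to 0.0572 to 0.104 CPM. Ogt itself measured 51.1 to 73.1 CPM in the WT libraries and 14.3 to 20.6 CPM in the OGT-deficient libraries (log2 fold change -1.86, adjusted p = 3.53e-07). The libraries also differed in alignments to several places. Per assigned read these were 0.314, 0.442, 0.624, 1.02 and 0.955 across WT 1 to 5 and 0.205, 0.224, 0.207 and 0.220 across OGT-deficient 1 to 4. Of 10 hepatocyte markers, 9 were tested and 7 fell, their summed level being 105121 to 126906 CPM in WT and 52173 to 67848 CPM in OGT-deficient liver. The change between the groups was broad, with 61.1% of the 14104 tested genes called at an adjusted p under 0.05 in edgeR's quasi-likelihood test.

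Among the collagen genes, 31 of 44 passed the filter on low counts, and of these 20 rose, 2 fell and 9 were not called. Over all tested genes 31.6% rose and 29.4% fell. The median log2 fold change of the 31 tested collagens was 1.73, beside 0.02 over all tested genes. For 19 of them all 4 OGT-deficient libraries exceeded all 5 controls, and for 2 all 4 were below all 5. Over all tested genes the groups did not overlap for 51.3%, 26.2% being higher and 25.0% lower in OGT-deficient liver. Rises were found in the fibrillar (5 of 9 tested), basement membrane (5 of 7), network, beaded filament and anchoring (7 of 8) and FACIT (3 of 5) classes, and in neither of the 2 tested transmembrane genes.

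Per kilobase of transcript, the order of the mean levels of the collagens differed between the groups. Col18a1, a basement membrane chain, stood first in both, at a mean of 304 CPM per kb in WT and 196 CPM per kb in OGT-deficient liver. In WT it was followed by Col3a1 (12.2 CPM per kb), Col4a1 (10.01), Col4a2 (9.54), Col14a1 (9.47), Col5a3 (5.22) and Col1a2 (5.12), with Col1a1 at rank 10 (3.17). In OGT-deficient liver the order was Col3a1 (80.5 CPM per kb), Col4a1 (33.2), Col1a2 (30.6), Col1a1 (29.6), Col4a2 (27.1) and Col14a1 (17.96). Col5a3 stood at rank 14 and Col27a1 at rank 16 there. Col4a1, Col1a2, Col1a1 and Col4a2 had overlapping ranges in OGT-deficient liver. Within libraries, Col4a1 (37.1, 36.0, 34.3 and 25.4 CPM per kb across OGT-deficient 1 to 4) was above Col4a2 (28.9, 32.0, 28.4 and 18.9) each time. The other pairs of these genes changed order between libraries. The range of Col14a1 also overlapped that of Col4a2 there, but Col14a1 was below Col4a2 in each OGT-deficient library. In WT the ranges of the genes named after Col18a1, Col1a1 included, all overlapped. Within WT libraries, Col1a1 (7.48, 1.77, 3.68, 1.33 and 1.57 CPM per kb across WT 1 to 5) was below Col1a2 each time. Col1a2 stood at 9.85, 3.94, 5.92, 2.70 and 3.19 CPM per kb in the same order. Both were below Col3a1, Col4a1, Col4a2 and Col14a1 in every WT library, while those genes changed order among themselves. Col5a3 was below Col4a1 and Col14a1 in every WT library and changed order with the other named genes.

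**Figure D1:**
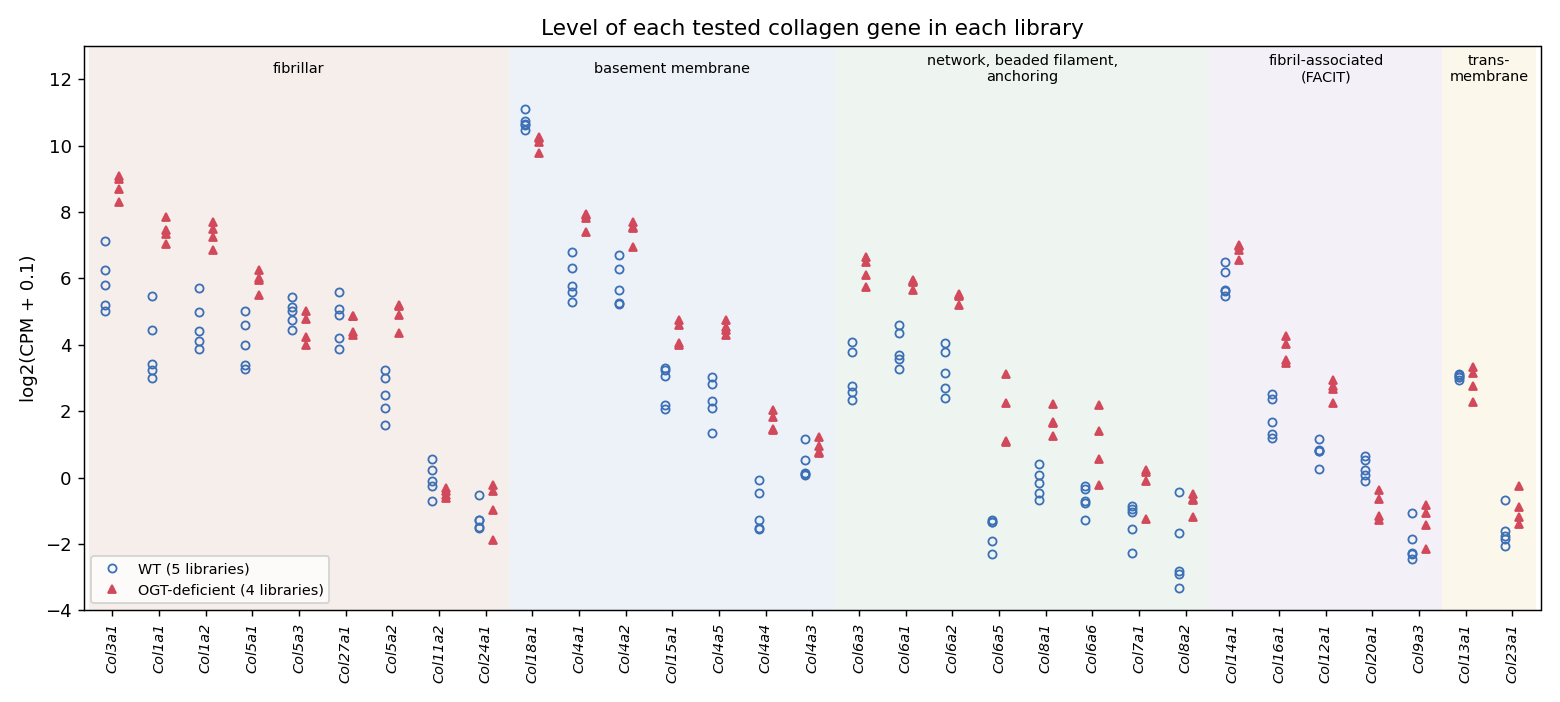
The level of each of the 31 tested collagen genes in each library, as log2 of CPM plus 0.1, grouped by class and ordered within a class by mean level (open circles, 5 WT libraries; triangles, 4 OGT-deficient libraries). Col18a1 lies above all other collagens in both groups. The triangles of the Col1a1, Col1a2, Col3a1, Col6a1, Col6a2, Col6a3, Col6a5 and Col6a6 columns lie above their circles.

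Type I and type III collagen, the fibril-forming proteins of scar, rose with the largest estimates among the fibrillar genes. Col1a1 (chromosome 11, 94936224 to 94953042, plus strand, GRCm38), the alpha 1 chain of type I collagen, measured 44.3, 10.5, 21.8, 7.87 and 9.33 CPM across WT 1 to 5 and 162, 177, 232 and 132 CPM across OGT-deficient 1 to 4. The groups did not overlap, and WT 1 was the highest control. The mean went from 18.8 ± 15.3 CPM (n = 5, SD) to 176 ± 42.1 CPM (n = 4, SD), and the rise (log2 change 3.22, SE 0.44, adjusted p = 4.84e-05 in edgeR's test) was 3.82 on the log2 scale without WT 1. Col1a2 (chromosome 6, 4504814 to 4541544, plus strand), which encodes the partner chain of type I, was counted at 52.7, 21.1, 31.7, 14.4 and 17.1 CPM across WT 1 to 5 and at 179, 152, 206 and 117 CPM across OGT-deficient 1 to 4. Its groups were likewise apart, and it went up from 27.4 ± 15.6 to 164 ± 38.4 CPM (log2 change 2.57, SE 0.33, adjusted p = 2.40e-05). For Col3a1 (chromosome 1, 45311538 to 45349706, plus strand), whose chain alone makes up type III collagen, the WT libraries held 139, 55.8, 75.8, 32.5 and 36.3 CPM and the OGT-deficient libraries 512, 417, 546 and 318 CPM. It rose as well (log2 change 2.72, SE 0.36, adjusted p = 3.84e-05), with WT 1 again the highest control and OGT-deficient 4 the lowest of its group.

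Type V collagen, which starts fibrils and limits their width, has 3 chains among the measured genes, of which 2 rose. Col5a1 gave 32.5, 15.9, 23.8, 9.502 and 10.3 CPM across WT 1 to 5 and 61.8, 63.8, 75.9 and 45.6 CPM across OGT-deficient 1 to 4. Col5a2, which lies 24.6 kb from Col3a1 on chromosome 1, gave 9.31, 5.52, 7.88, 2.91 and 4.203 CPM and 36.5, 29.5, 35.6 and 20.5 CPM in the same order of libraries. Both rose without overlap of the groups (Col5a1, log2 change 1.74, SE 0.31, adjusted p = 3.45e-04; Col5a2, log2 change 2.34, SE 0.28, adjusted p = 1.42e-05). Col5a3, the chain of this type with the narrowest known distribution, stood at 26.5, 21.8, 32.6, 35.2 and 43.6 CPM in WT and 18.8, 15.7, 32.1 and 27.1 CPM in OGT-deficient liver. Its groups overlapped and it was not called (log2 change -0.44, SE 0.22, adjusted p = 0.1002). Without WT 2 its adjusted p was 0.0435, and without OGT-deficient 3 it was 0.0328, both with a lower level in OGT-deficient liver.

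The other tested fibrillar genes were not called either. Col27a1, a fibrillar chain known from cartilage, measured 18.5, 14.6, 29.6, 47.96 and 33.6 CPM in WT and 20.7, 19.5, 29.1 and 29.2 CPM in OGT-deficient liver, with overlapping groups (log2 change -0.22, SE 0.28, adjusted p = 0.515). WT 4 held the highest value here, although WT 4 was the lowest control for most of the collagens that rose. Col11a2, a cartilage chain of type XI, was found at 0.513, 0.735, 1.07, 1.39 and 0.835 CPM and 0.5902, 0.554, 0.705 and 0.661 CPM (log2 change -0.51, SE 0.30, adjusted p = 0.167). Col24a1, a fibrillar chain known from bone, was found at 0.256, 0.252, 0.309, 0.312 and 0.596 CPM in WT, where WT 5 stood apart, and at 0.759, 0.403, 0.171 and 0.661 CPM in OGT-deficient liver (log2 change 0.54, SE 0.44, adjusted p = 0.303). Of the remaining fibrillar genes, Col2a1, the main chain of cartilage, had 0 counts in all 9 libraries, and Col11a1 did not exceed 2 counts.

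**Figure D2:**
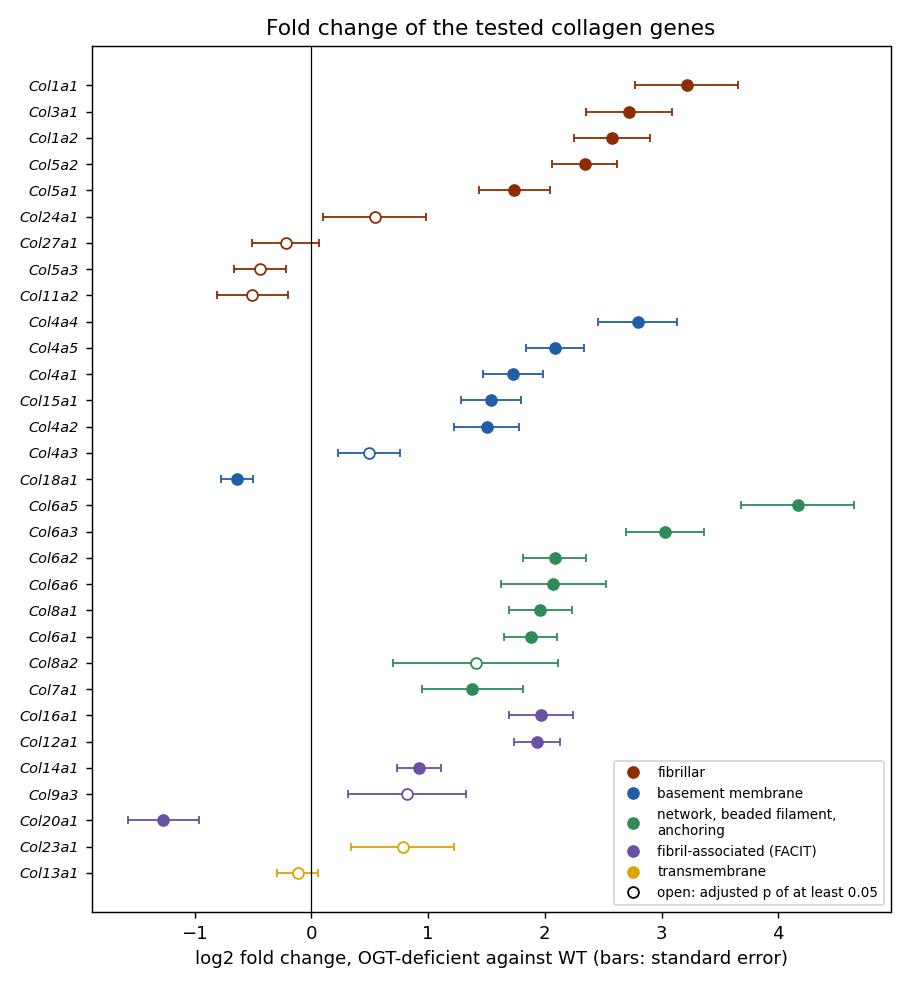
The log2 fold change of each tested collagen gene, OGT-deficient against WT, with bars of 1 SE on either side; colours mark the classes, and filled points are genes called at an adjusted p under 0.05. Of the 31 points, 20 are filled and to the right of 0, and those of Col18a1 and Col20a1 are filled and to the left.

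In the basement membrane class, 4 type IV chains rose while Col18a1, the most abundant collagen transcript of the liver samples, fell. Col18a1 (chromosome 10, 77052178 to 77166548, minus strand), whose C-terminal fragment is endostatin, measured 2181, 1579.5, 1725, 1609 and 1422 CPM across WT 1 to 5 and 873, 1188, 1100.2 and 1219 CPM across OGT-deficient 1 to 4. Every OGT-deficient library lay below every WT library, and the mean went down from 1704 ± 288 to 1095 ± 156 CPM (log2 change -0.64, SE 0.14, adjusted p = 0.00154). Hepatocytes are known to make type XVIII collagen in the liver, and 7 of the 9 tested hepatocyte markers fell alongside it; their part in this result was not tested. Col15a1, its closest relative, moved the other way, from 8.25, 4.12, 4.49, 9.29 and 9.69 CPM in WT to 23.9, 16.5, 26.5 and 15.9 CPM in OGT-deficient liver, without overlap (log2 change 1.54, SE 0.26, adjusted p = 2.19e-04).

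Col4a1 and Col4a2 encode the type IV chains found in nearly all basement membranes. Col4a1 (chromosome 8, 11198423 to 11312826, minus strand) was counted at 112, 54.2, 78.7, 38.6 and 47.7 CPM across WT 1 to 5 and at 245, 238, 227 and 168 CPM across OGT-deficient 1 to 4. Col4a2 (plus strand of the same locus) followed at 104, 50.4, 76.9, 38.3 and 37.6 CPM and 186, 207, 183 and 122 CPM. Both rose with no overlap (Col4a1, log2 change 1.73, SE 0.26, adjusted p = 8.96e-05; Col4a2, log2 change 1.503, SE 0.28, adjusted p = 4.73e-04). The starts of this pair lie head to head and the annotated transcripts overlap by a few bases. Col4a5, a chain of the network of the kidney filter and other specialised membranes, ran from 2.46 to 8.07 CPM in WT and 19.4 to 27.0 CPM in OGT-deficient liver, and it also rose (log2 change 2.09, SE 0.25, adjusted p = 1.53e-05).

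Col4a3 and Col4a4, the other chains of that specialised network, are read in opposite directions from starts 72 bases apart on chromosome 1. The stretch between them is shown because the 2 genes share it and the ratio of their counts differed between the groups. It holds, on either strand, no CCAAT, no TATA box (TATAAA) and no GC box (GGGCGG), 3 common promoter motifs (RefSeq, GRCm38.p6, chr1:82586850-82586920, minus strand, read towards Col4a4).
Col4a4 to Col4a3 spacer: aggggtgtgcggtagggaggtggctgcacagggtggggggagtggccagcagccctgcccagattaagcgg
Col4a4 measured 0.619, 0.252, 0.842, 0.312 and 0.238 CPM in WT and 4.005, 2.65, 3.45 and 2.59 CPM in OGT-deficient liver, and every OGT-deficient library was above every control (log2 change 2.79, SE 0.34, adjusted p = 1.71e-05). Col4a3 measured 0.961, 1.01, 2.16, 0.971 and 1.34 CPM in WT and 1.602, 2.24, 1.83 and 1.57 CPM in OGT-deficient liver, with overlapping groups and no call (log2 change 0.49, SE 0.27, adjusted p = 0.128). WT 3 was the control nearest to the OGT-deficient libraries, and without it the log2 fold change of Col4a3 was 0.76 (adjusted p = 0.0127). Col4a6, the remaining type IV gene, did not pass the filter: its counts were 5, 4, 0, 0 and 0 across WT 1 to 5 and 71, 0, 74 and 40 across OGT-deficient 1 to 4, so 1 OGT-deficient library held none.

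The beaded filament collagen of type VI, which forms microfibrils around cells, rose in every one of its 5 tested chains. Col6a3 (chromosome 1, 90765923 to 90843971, minus strand), the largest of the common chains, measured 16.7, 6.68, 13.5, 4.99 and 5.81 CPM across WT 1 to 5 and 101, 68.98, 90.8 and 53.2 CPM across OGT-deficient 1 to 4. Its groups did not overlap (log2 change 3.03, SE 0.33, adjusted p = 7.43e-06), with OGT-deficient 4 the lowest of its group. The neighbouring genes Col6a1 and Col6a2 on chromosome 10, whose chains assemble with it, were at 23.99, 12.8, 20.3, 9.47 and 11.7 and at 16.4, 8.74, 13.6, 5.202 and 6.35 CPM in WT. In OGT-deficient liver they were at 61.7, 59.4, 59.9 and 49.8 and at 43.97, 45.3, 46.2 and 36.4 CPM, and both rose without overlap (Col6a1, log2 change 1.88, SE 0.22, adjusted p = 1.52e-05; Col6a2, log2 change 2.08, SE 0.27, adjusted p = 2.88e-05). Col6a5 and Col6a6, relatives that can take the place of the alpha 3 chain, had low levels in WT. Col6a5 ran from 0.104 to 0.309 CPM in WT and 1.98 to 8.52 CPM in OGT-deficient liver (log2 change 4.17, SE 0.49, adjusted p = 1.22e-05), the largest rise among the tested collagens, and Col6a6 from 0.309 to 0.745 CPM in WT and 0.759 to 4.45 CPM in OGT-deficient liver (log2 change 2.07, SE 0.45, adjusted p = 0.00154). Of the 50-base stretches of Col6a5, 3.48% occur in Col6a6. Of those of Col6a6, 3.71% occur in Col6a5, Kcnj16 or Vmn2r115. A small part of the reads of both genes may therefore not be counted. Without the WT libraries 4 and 5, which held the most alignments to several places, the rises were 4.06 for Col6a5 and 2.36 for Col6a6.

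The network-forming type VIII chains, known from vessel walls and the cornea, included 1 that rose. Col8a1 ran from 0.5202 to 1.22 CPM in WT and 2.301 to 4.59 CPM in OGT-deficient liver and rose (log2 change 1.96, SE 0.27, adjusted p = 5.04e-05). Col8a2 measured 0.214, 0.0420, 0.645, 0.0347 and 0 CPM in WT, where WT 3 was far above the rest and WT 5 had no count, and 0.611, 0.529, 0.343 and 0.539 CPM in OGT-deficient liver. It was not called (log2 change 1.41, SE 0.71, adjusted p = 0.102), and without WT 3 its log2 fold change was 2.60 (adjusted p = 0.00348). Limma voom called it as well, at 2.42 (adjusted p = 0.0116). Col7a1, the collagen of the anchoring fibrils under epithelia, ran from 0.105 to 0.449 CPM in WT and 0.318 to 1.07 CPM in OGT-deficient liver. It rose by the test (log2 change 1.38, SE 0.44, adjusted p = 0.0151) although the groups overlapped, and without OGT-deficient 1 the adjusted p was 0.0509. Col10a1, the collagen of hypertrophic cartilage, had 3, 2, 6, 0 and 0 counts in WT 1 to 5 and none in any OGT-deficient library, too few to pass the filter. Col6a4, Col26a1 and Col28a1 were under it too, with highest levels of 0.214, 0.151 and 0.554 CPM in any library.

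Among the FACIT collagens, the chains that coat type I fibrils rose and Col20a1 fell. Col14a1 (chromosome 15, 55307750 to 55520803, plus strand), the most abundant of them, measured 89.7, 49.1, 72.5, 44.5 and 49.99 CPM across WT 1 to 5 and 127, 127, 116 and 93.2 CPM across OGT-deficient 1 to 4. Its rise was the smallest among the collagens called higher (log2 change 0.92, SE 0.19, adjusted p = 0.00103), and its groups were separated by a narrow margin between WT 1 and OGT-deficient 4. Col12a1, its closest relative on the fibril surface, went from 2.11, 1.64, 1.66, 1.66 and 1.103 CPM to 6.26, 6.65, 7.58 and 4.63 CPM (log2 change 1.93, SE 0.20, adjusted p = 3.99e-06). Col16a1, which is found near fibrils and microfibrils, went from 5.02, 2.21, 5.64, 2.36 and 3.10 CPM to 19.2, 10.8, 16.04 and 11.5 CPM (log2 change 1.97, SE 0.28, adjusted p = 5.51e-05). In both, every OGT-deficient library was above every control. Col20a1 was low in all samples, at 1.47, 0.8401, 1.35, 1.08 and 0.954 CPM in WT and 0.316, 0.353, 0.667 and 0.539 CPM in OGT-deficient liver, and fell without overlap (log2 change -1.27, SE 0.30, adjusted p = 0.00301). Col9a3, a cartilage chain, was counted at 0.107, 0.378, 0.0842, 0.104 and 0.179 CPM in WT and 0.464, 0.126, 0.381 and 0.269 CPM in OGT-deficient liver and was not called (log2 change 0.82, SE 0.51, adjusted p = 0.178). On the opposite strand, Tcfl5 covers 6.07% of its exonic bases, which makes so low a value uncertain. Col9a1, Col9a2 and Col22a1 did not exceed 0.171 CPM in any library, and Col19a1 had 0 counts in all 9.

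Transmembrane collagens did not rise by the test. Col13a1, known from the junction of nerve and muscle, was the best measured, at 8.37, 7.54, 8.67, 8.08 and 7.99 CPM across WT 1 to 5 and 9.86, 8.69, 6.65 and 4.77 CPM across OGT-deficient 1 to 4. The OGT-deficient libraries lay on both sides of the narrow WT range (log2 change -0.12, SE 0.18, adjusted p = 0.582). Col23a1 measured 0.192, 0.525, 0.224, 0.139 and 0.179 CPM in WT, where WT 2 stood apart, and 0.738, 0.277, 0.343 and 0.441 CPM in OGT-deficient liver (log2 change 0.78, SE 0.44, adjusted p = 0.141). Without WT 2 its log2 fold change was 1.27 (adjusted p = 0.0201). Col17a1, the collagen of hemidesmosomes, and Col25a1 stayed under the filter, at no more than 12 and 9 counts in any library.

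Col18a1 held a smaller share of collagen counts in each OGT-deficient library than in any control, while the sum over all members separated the groups on 1 of 3 scales. All 44 genes together held 0.264, 0.1702, 0.207, 0.172 and 0.161% of assigned reads across WT 1 to 5 and 0.334, 0.315, 0.359 and 0.272% across OGT-deficient 1 to 4. The 95% Wilson intervals, which cover counting error only, were 0.263 to 0.266% for WT 1 and 0.271 to 0.274% for OGT-deficient 4, the libraries of the 2 groups nearest to each other. With the 30 most abundant genes left out of the total, WT 1 stood at 0.3658% and OGT-deficient 4 at 0.3655%, so the groups overlapped. On the TMM scale the sum was 2906, 1935, 2258, 1931 and 1769 CPM in WT and 2744, 2885, 3083 and 2503 CPM in OGT-deficient liver, where WT 1 exceeded all but OGT-deficient 3. Col18a1 alone made up 75.04, 81.6, 76.4, 83.3 and 80.4% of collagen counts in WT and 31.8, 41.2, 35.7 and 48.7% in OGT-deficient liver. The other 43 genes summed to 725, 356, 533, 322 and 347 CPM in WT and to 1870.1, 1697, 1983 and 1284 CPM in OGT-deficient liver, and the ratio of the group means was 3.74. Within those counts the fibrillar share was 44.01 ± 2.46% (SD, n = 5) in WT and 54.2 ± 2.95% (SD, n = 4) in OGT-deficient liver. The FACIT share was 15.1 ± 0.905% and 8.12 ± 0.694%, although Col14a1, Col12a1 and Col16a1 had all risen. These shares are sums over the collagens and carry no test.

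**Figure D3:**
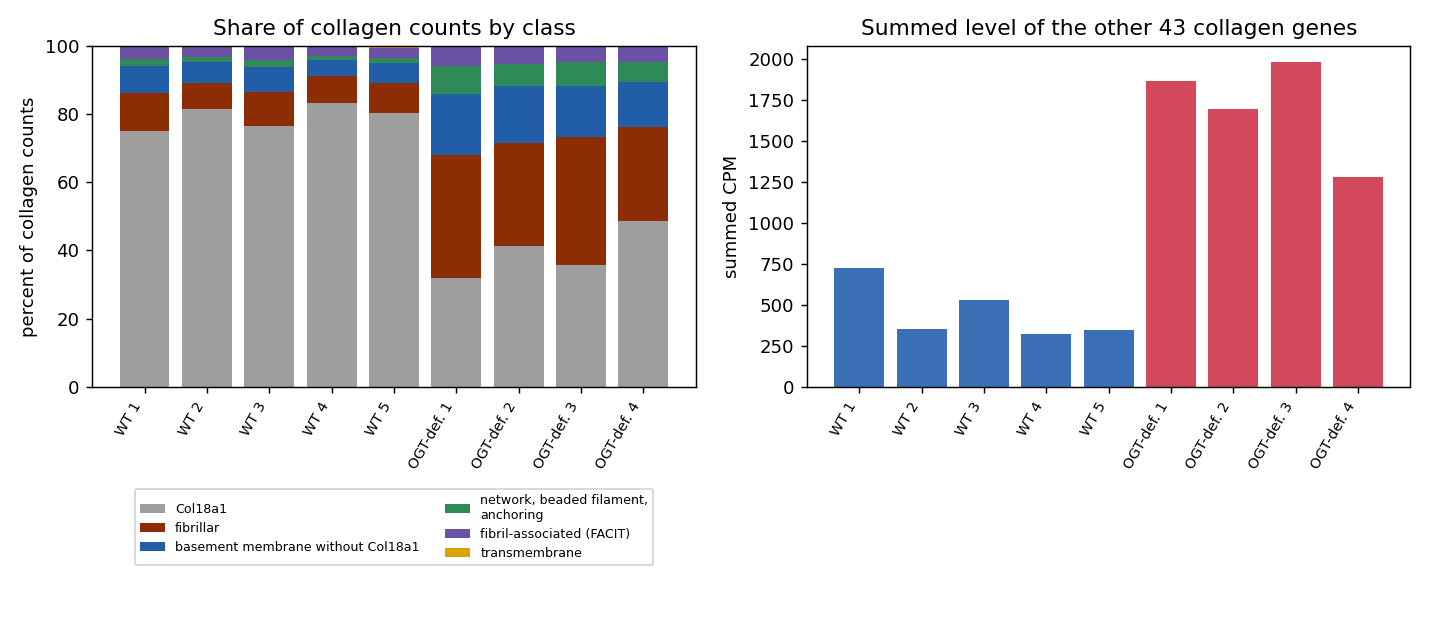
Left, the percent of collagen counts held in each library by Col18a1 and by each class; right, the summed CPM of the 43 collagen genes other than Col18a1 in each library, with bars from 0. The part held by Col18a1 runs from 75.0 to 83.3% for WT, against 31.8 to 48.7% for OGT-deficient liver, and the sum of the others is highest in OGT-deficient 3.

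Chains of a shared protein, or of close relatives, were then compared within each library, as ratios that do not depend on the scaling between libraries. Of 12 such pairs, 9 had both chains tested, and 7 ratios differed between the groups after Benjamini-Hochberg adjustment over the 9. With 5 against 4 libraries the smallest p the exact test can give is 0.0159. In type I collagen, whose usual form holds more alpha 1 than alpha 2 chains, the ratio of Col1a1 to Col1a2 counts was 0.842, 0.498, 0.689, 0.546 and 0.547 across WT 1 to 5 and 0.903, 1.16, 1.12 and 1.13 across OGT-deficient 1 to 4. Every OGT-deficient library was above every control (log2 difference 0.81, two-sided exact permutation p = 0.0159, adjusted 0.0238). Col6a3 to Col6a1 went the same way, from 0.696, 0.523, 0.667, 0.528 and 0.498 to 1.63, 1.16, 1.52 and 1.07 (log2 difference 1.20, two-sided exact permutation p = 0.0159, adjusted 0.0238). Col3a1 to Col1a1, a pair of separate fibrillar proteins, was 3.13, 5.31, 3.47, 4.13 and 3.89 in WT and 3.16, 2.36, 2.35 and 2.41 in OGT-deficient liver; WT 1 and OGT-deficient 1 overlapped (log2 difference -0.62, two-sided exact permutation p = 0.0317, adjusted 0.0408).

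The largest estimate belonged to the pair with starts 72 bases apart. Col4a3 to Col4a4 stood at 1.54, 3.88, 2.54, 3 and 5.35 across WT 1 to 5 and at 0.402, 0.848, 0.532 and 0.606 across OGT-deficient 1 to 4, so that Col4a3 had more counts than Col4a4 in each control and fewer in each OGT-deficient library (log2 difference -2.38, two-sided exact permutation p = 0.0159, adjusted 0.0238). Col4a1 to Col4a2, which start 21 bases apart, missed the adjusted threshold, with 1.07, 1.08, 1.02, 1.01 and 1.27 in WT and 1.32, 1.15, 1.24 and 1.38 in OGT-deficient liver (log2 difference 0.22, two-sided exact permutation p = 0.0476, adjusted 0.0536). Col15a1 to Col18a1 rose without overlap (log2 difference 2.22, two-sided exact permutation p = 0.0159, adjusted 0.0238). That outcome was fixed by the separate gene results, as Col15a1 was higher and Col18a1 lower in every OGT-deficient library than in any control. Col5a1 to Col5a2 (log2 difference -0.55, two-sided exact permutation p = 0.0159, adjusted 0.0238) and Col6a1 to Col6a2 (log2 difference -0.26, two-sided exact permutation p = 0.0159, adjusted 0.0238) fell, also without overlap. Col8a1 to Col8a2 had no call (log2 difference -0.50, two-sided exact permutation p = 0.683, adjusted 0.683), and its controls ranged from 1.21 in WT 3 to 43 in WT 5, with few counts of Col8a2. Without OGT-deficient 2, 3 or 4 no pair stayed under the threshold, the smallest adjusted p of the permutation test being 0.0536. With 5 against 3 libraries no p can be smaller than 0.0357. Whether the adjusted p then passes depends on how many pairs reach that floor.

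**Figure D4:**
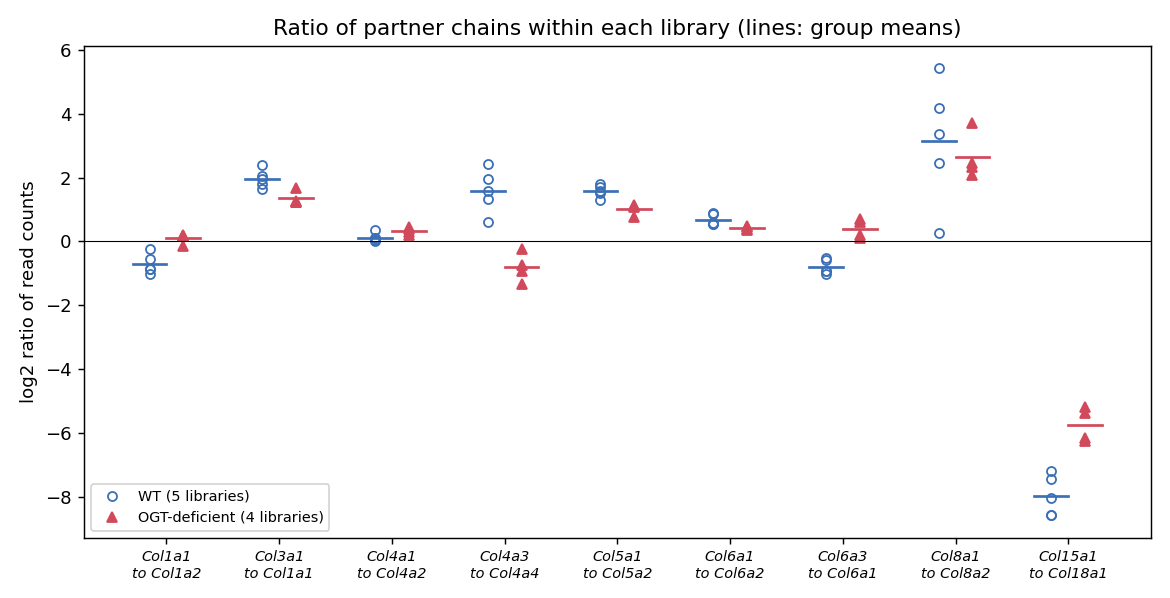
The log2 ratio of the counts of 2 collagen chains in each library, for the 9 pairs tested (open circles, WT; triangles, OGT-deficient). The groups lie on opposite sides of 0 for Col4a3 to Col4a4 and for Col6a3 to Col6a1.

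Collagen messages are textbook targets of the miR-29 family, small RNAs that pair through their seed, bases 2 to 8, with the 3′ UTR. The levels of this family were not analysed here, and the sequences are shown because they mark a feature that members share apart from their levels. The 3 mature forms have a common seed, in capitals (RefSeq, GRCm38.p6).
mmu-miR-29a-3p: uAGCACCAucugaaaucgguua
mmu-miR-29b-3p: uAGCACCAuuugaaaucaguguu
mmu-miR-29c-3p: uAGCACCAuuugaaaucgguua
Its match, TGGTGCT, occurs in the longest annotated 3′ UTR of 24 of 44 collagen genes (54.5%), against 14.5% of 19556 listed genes with a UTR. Followed by A, it occurs in 16 collagens (36.4%) and 3.08% of listed genes. The median UTR was 1079.5 bases in collagens and 1129 bases in all listed genes.

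The match is in 8 of 11 fibrillar and 7 of 8 basement membrane genes, but in 5 of 12 of the network, beaded filament and anchoring genes, 3 of 9 FACIT genes and 1 of 4 transmembrane genes. Sites are shown for members that rose and for Col5a3, which has 3 matches and was not called. Capitals mark the match, and each 3′ UTR stretch is written 5′ to 3′ along the message (GENCODE M21, GRCm38).
Col1a1 site at chr11:94952524-94952546, plus strand: tgggaaggaatttcTGGTGCTat
Col3a1 site at chr1:45348968-45348990, plus strand: tcaaaatgtctcaaTGGTGCTat
Col4a5 site at chrX:141688239-141688261, plus strand: actgctcccaccaaTGGTGCTaa
Col5a1 site at chr2:28038020-28038042, plus strand: acacttgtctcttgTGGTGCTat
Col6a3 site at chr1:90767410-90767432, minus strand: gtgacctgtcaataTGGTGCTaa
Col5a3 site at chr9:20770502-20770524, minus strand: tccaccaggcctttTGGTGCTat
Of the 17 tested collagens with a match 14 rose, and the median log2 change of the 17 was 1.96. Of the 14 tested without one 6 rose, namely Col1a2, Col6a1, Col6a5, Col6a6, Col12a1 and Col14a1, and the median was 0.87. Col18a1 and Col20a1, the members that fell, have no match. Among all tested genes 32.8% of those with and 31.7% of those without a match rose, and the medians were 0.05 with and 0.01 without. A match is a description of the letters and not evidence of pairing.

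Promoter windows, 250 bases before to 50 bases after a start, were listed for 35 of the 44 genes (38 windows, RefSeq, GRCm38.p6). Only the 250 bases before the start were searched. On either strand, GGGCGG, the GC box, was in 57.9% of collagen windows and 32.7% of all 32851 windows. CCAAT was in 34.2% against 33.8%, and TATAAA in 13.2% against 12.4%. The bases upstream of Col3a1, which rose, and of Col5a3, which was not called, are shown to set 2 fibrillar genes side by side, with matches to these 3 motifs in capitals (GRCm38.p6, chr1:45311288-45311537, plus strand, and chr9:20815068-20815317, minus strand).
Col3a1 upstream: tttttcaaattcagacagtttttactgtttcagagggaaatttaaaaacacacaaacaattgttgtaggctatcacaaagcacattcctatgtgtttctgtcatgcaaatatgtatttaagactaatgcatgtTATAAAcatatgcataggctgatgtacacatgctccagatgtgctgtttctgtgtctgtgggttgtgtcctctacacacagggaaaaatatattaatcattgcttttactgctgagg
Col5a3 upstream: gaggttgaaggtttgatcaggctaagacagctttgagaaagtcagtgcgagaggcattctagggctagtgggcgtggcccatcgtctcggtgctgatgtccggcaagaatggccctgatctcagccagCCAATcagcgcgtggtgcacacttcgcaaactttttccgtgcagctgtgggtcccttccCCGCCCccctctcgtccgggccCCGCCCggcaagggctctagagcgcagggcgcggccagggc
The Col3a1 stretch holds 1 TATAAA and neither of the others. The Col5a3 stretch holds 1 CCAAT and 2 GC boxes on the minus strand, where they read CCGCCC. Col1a1, Col4a3, Col5a2, Col12a1, Col14a1, Col2a1, Col9a3, Col22a1 and Col26a1 have no window in this table.

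The genes that act on collagen were counted in 5 lists, to be read against the 31.6% of all tested genes that rose and the 29.4% that fell. Of 19 genes of chain modification and folding, 18 were tested, 10 rose and 3 fell, with P4ha3 under the filter. The median log2 change was 0.29. Plod2, a lysyl hydroxylase that prepares cross-links, went up from 0.648 ± 0.318 CPM (n = 5, SD) to 4.86 ± 1.26 CPM (n = 4, SD) (log2 change 2.91, SE 0.32, adjusted p = 7.78e-06). Serpinh1, the collagen chaperone HSP47, went up from 15.5 ± 5.24 to 54.9 ± 6.08 CPM (log2 change 1.82, SE 0.21, adjusted p = 9.33e-06). Colgalt1, which adds galactose to hydroxylysine, fell by 0.38, and Ppib, a proline isomerase of the same machinery, fell by 0.34 on the log2 scale.

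Among 15 tested of 18 genes of secretion and propeptide processing, 6 rose and 5 fell (median log2 change 0.17). Adamts2, which removes the N-propeptide of fibrillar collagens, went up from 12.01 ± 6.16 to 35.8 ± 3.14 CPM (log2 change 1.57, SE 0.29, adjusted p = 4.67e-04), and Mep1b, the protease meprin beta, rose by 3.30 on the log2 scale from 0.194 ± 0.1199 CPM. Mia2 and Ctage5, which help load large cargo at the exit sites of the endoplasmic reticulum, fell by 0.73 and 0.60 on the log2 scale; they belong to a single locus in newer annotation, so their counts are not independent. Of 13 tested collagen receptors and uptake genes out of 14 listed, 11 rose and none fell (median log2 change 1.04). Ddr1, a receptor kinase for collagen, went up from 3.83 ± 0.839 to 21.4 ± 4.05 CPM (log2 change 2.48, SE 0.17, adjusted p = 1.83e-07) and Mrc2, an uptake receptor for collagen fragments, from 1.55 ± 0.796 to 9.997 ± 2.37 CPM (log2 change 2.67, SE 0.32, adjusted p = 1.46e-05). Of 11 tested of 15 collagenolysis genes, 8 rose and none fell (median log2 change 0.82), and the 2 with the smallest p were the protease inhibitors Timp2 (log2 change 1.49) and Timp1 (3.51), known to restrain that process. Of 24 transcription factors linked to collagen genes, 7 rose, such as Klf6 (log2 change 1.43) and Smad3 (0.70), and 9 fell, such as Sox6 (-0.89) and Smad4 (-0.48), both near the shares over all tested genes, with a median log2 change of 0.11.

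**Figure D5:**
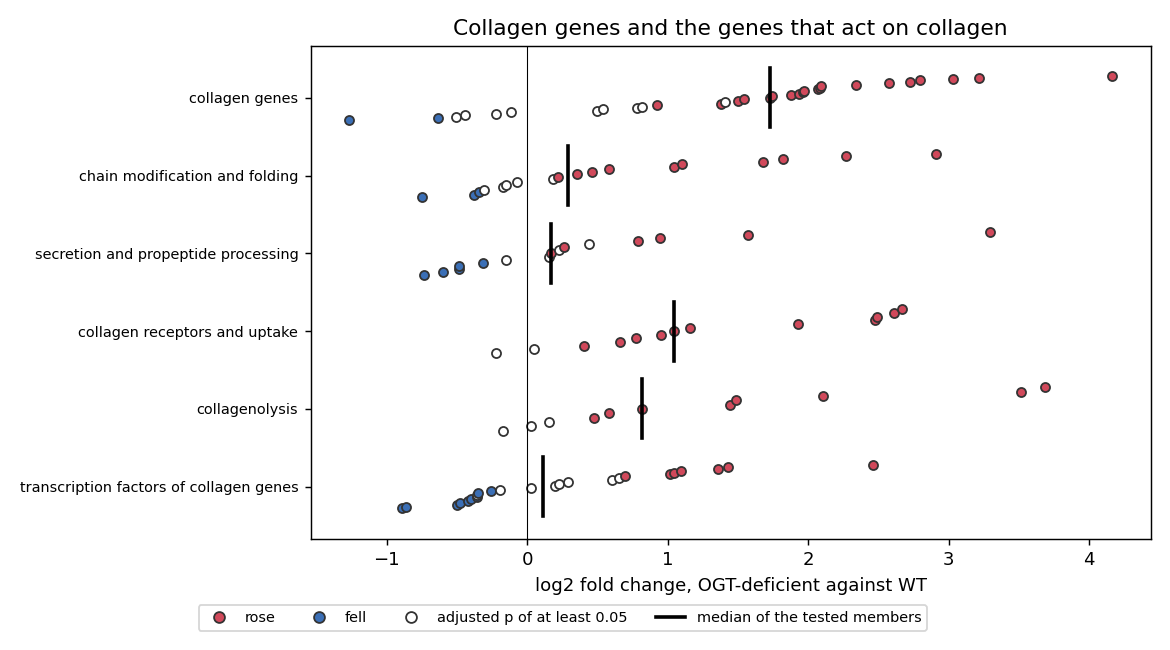
The log2 fold change of each tested gene, OGT-deficient against WT, for the collagens and for 5 lists of genes that act on them; filled points are called at an adjusted p under 0.05 and the vertical bars are medians. The collagens have a median of 1.73 and the transcription factors 0.11.

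Markers of cells known to make collagen, and of other liver cells, were counted beside the collagens; of all tested genes 31.6% rose and 29.4% fell. All 12 portal fibroblast markers were tested and rose, and their summed level was 120.5 to 203 CPM in WT and 406 to 564 CPM in OGT-deficient liver. Of 8 markers of myofibroblasts and smooth muscle, 6 were tested and 5 rose (16.8 to 26.4 CPM in WT and 41.4 to 62.1 CPM in OGT-deficient liver), with Cnn1 and Actg2 under the filter. Of 12 quiescent stellate cell markers 7 rose, none fell and 5 were not called (303 to 469.98 CPM in WT and 444 to 539 CPM in OGT-deficient liver). Markers of cholangiocytes, the cells of bile ducts, rose in 11 of 12 cases and fell in 1 (51.05 to 83.3 CPM in WT and 184 to 323 CPM in OGT-deficient liver). Of 12 endothelial markers 1 rose and 4 fell, the falls being near the share over all tested genes (486 to 669 CPM in WT and 307 to 562 CPM in OGT-deficient liver). Mesothelial markers rose in 3 of 6 tested of 8 (198 to 228 CPM in WT and 554 to 764 CPM in OGT-deficient liver, most of it Krt8, which bile duct cells and hepatocytes also express). Of 8 cartilage markers 2 were tested, and both rose from very low levels, while Matn1 and Epyc were at 0 in all libraries, as was Col2a1 (0.0694 to 0.385 CPM in WT and 0.958 to 1.81 CPM in OGT-deficient liver). The part of these cell types in the collagen results was not tested.

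Within each group, the same few libraries were at the extremes for most of the collagens that rose. Of the 20 genes that rose, WT 1 was the highest control for 14, WT 3 for 4 and WT 5 for 2, while WT 4 was the lowest control for 13. OGT-deficient 4 was the lowest of its group for 18 of the 20 and OGT-deficient 2 for the other 2. WT 4 and WT 5 were also the controls with the most alignments to several places. Without WT 4 and WT 5, an alternative chosen after the data were seen, 21 collagens rose and 2 fell.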

How the data were processed

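Total liver RNA of 9 mice was sequenced. The submitters' processing notes name TopHat2 2.1.0, HTSeq 0.9.1 and the build mm10 (GRCm38), and the authors deposited raw whole-number counts per gene symbol for each library. The annotation release is not given in the sources used here, nor is the use of strand in counting. Replicates came from separate mice, as the design text gives as many mice as libraries. The 5 summary lines of each table were left out of library sizes and of every test; reads outside genes were 8.95 to 10.7% of uniquely aligned reads.

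The counts were tested with edgeR 4.0.16 under R 4.3.3 (filterByExpr, TMM, glmQLFit and glmQLFTest, with group as the single term). P-values were adjusted by Benjamini-Hochberg over 14104 genes, and the threshold was 0.05. Per-kilobase levels used the transcript with the longest coding sequence in GENCODE M21. Chain ratios were log2 of counts plus 0.5, with exact permutation tests in scipy 1.17.1. On simulated counts for 13567 genes in this comparison, 98 of 100 genes changed by 1 on the log2 scale were recovered. Of 100 changed by 2, 100 were recovered, and there were 5 false calls. The simulation gave every gene the same dispersion and changed few genes, all with a WT mean of at least 0.5 CPM. It therefore does not cover collagens below that level, genes with a larger spread, or data in which most genes change.

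The members, the lists and the tests were chosen with earlier results of these data known. All tested collagens are named. Values per library are given for the 3 most abundant genes of each class, for genes not called or lower, and for chains whose ratio differed. From each pathway list, the genes with the smallest p are named, up to 2 in each direction. Alternatives were DESeq2 size factors, upper-quartile scaling, no filter, at least CPM 1 in 4 libraries, the DESeq2 1.42.0 Wald test, limma 3.58.1 voom, the replicate number as a block, a pseudocount of 2 for the ratios, a total without the 30 most abundant genes and leaving out each library. Leaving out WT 4 and WT 5, and a collagen sum without Col18a1, were added after the data were seen.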

Additional observations from a re-analysis of the deposited data

Results flagged for a closer look

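Among 62 groups of 4 or 5 libraries, each a collagen gene in WT or in OGT-deficient liver, 2 had a library far from the others, and chance flags about 1 in 20. Col24a1 in WT 5 stood at 0.596 CPM, where the other controls ran from 0.252 to 0.312 CPM. Col23a1 in WT 2 stood at 0.525 CPM, where the other controls ran from 0.139 to 0.224 CPM. Both genes are close to the filter on low counts.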

How the results depend on the processing

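Of the 31 tested collagens, 24 kept their direction and their side of the threshold under every alternative that tested them, 19 under all 17 and 5 low genes (Col6a6, Col11a2, Col20a1, Col24a1 and Col9a3) under 15 or 16. They include 19 of the 20 that rose. The exception, Col7a1, had adjusted p = 0.0506 with the replicate block (edgeR). Risers numbered 18 to 22 and fallers 1 to 3 over the alternatives. The lowest count of fallers, 1, came with CPM 1 in 4 libraries, where Col20a1 was not tested. With no filter 22 rose, Col4a6 and Col28a1 being added, and 3 fell, Col10a1 being added. Upper-quartile scaling moved the median of all genes to 0.14 on the log2 scale and the share of calls that were higher from 51.8% to 62.5%. The log2 fold change of Col13a1 was then 0.0076, and without replicates between -0.30 and 0.023. That of Col27a1 was -0.39 to 0.038 without replicates and 0.23 without WT 4 and WT 5. None of these passed the test. The log2 ratio difference of Col8a1 to Col8a2 was 0.14 with a pseudocount of 2, 0.072 in sign flips with the replicate block and -1.22 to 0.072 without replicates. Pairs whose ratio differed numbered 0 to 7 without replicates. With the replicate block the number was 0, as 4 sign flips allow no p under 0.125. The correlations of same-numbered libraries were 0.05, -0.10, 0.02 and 0.10, and a single number matched best with its own. Such correlations cannot exclude that same-numbered mice shared a litter or batch. In edgeR the block gave 19 rises and 3 falls, Col5a3 being added (log2 change -0.34, adjusted p = 0.0237). Depth limits the genes under the filter, where a count of 0 still allows 3.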

Other observations

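Several collagen genes lie next to each other on GRCm38, and neighbours did not always share a call. Col3a1 and Col5a2, 24.6 kb apart on chromosome 1, both rose. Col6a2 and Col6a1, 85.2 kb apart on chromosome 10, both rose, whereas Col18a1, 326 kb further on, fell. On chromosome 9, Col6a6 and Col6a5 are 27.9 kb apart and both rose, while Col6a4, 28.8 kb beyond, stayed under the filter. Col4a6 and Col4a5 start 1309 bases apart on chromosome X in opposite directions; Col4a5 was between 19.4 and 27.0 CPM in each OGT-deficient library, while Col4a6 had no count in OGT-deficient 2.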
